A study of Homo sapiens with 18 samples.

Results

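Nuclear genes whose products copy, pack and transcribe mitochondrial DNA (mtDNA) were followed in SW620 cells, a human colon cancer line, after silencing of the mitochondrial protease gene Lonp1 and after heat shock. The 9 genes were fixed by name as core factors of mtDNA maintenance and mitochondrial transcription, out of 26485 gene symbols in the count table: TFAM, POLG, POLG2, POLRMT, TFB1M, TFB2M, SSBP1, TOP1MT and MGME1. One of them, TFAM, was of special interest because its protein is a known LONP1 substrate. The rule names the genes and sets no threshold on a measured value, although it was written with earlier results of these data known. All 9 passed the filter on low counts that left 12832 genes for testing.

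The 18 libraries came from stranded mRNA and fell into 6 groups of 3. Cells had received either a scramble siRNA or siRNA against Lonp1 (siLonp1), and were harvested from 37 °C (Ctrl), after a heat shock of 1 h at 42 °C (HS), or after the same heat shock and a recovery of 1 h at 37 °C (HS+REC). The groups are named Ctrl scramble, Ctrl siLonp1, HS scramble, HS siLonp1, HS+REC scramble and HS+REC siLonp1. The replicates were described by the study as independent biological replicates of this 1 cell line. The study's methods named a pair of siRNAs against Lonp1 and did not say which was used for RNAseq, so an effect of the siRNA sequence and an effect of losing LONP1 cannot be told apart here.

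MtDNA is a small circular genome kept in many copies per cell and packed into nucleoids, and it encodes a few core subunits of the respiratory chain with the rRNAs and tRNAs that translate them. Every protein that copies or transcribes it is encoded in the nucleus and imported. Replication is carried out by polymerase gamma with a helicase, the single-stranded DNA-binding protein SSBP1 and a topoisomerase, and transcription by a dedicated RNA polymerase with an initiation factor and TFAM, which also coats the genome. LONP1 degrades TFAM that is not bound to DNA, so the TFAM protein and its mRNA need not move together, and only mRNA was measured here. Transcripts encoded by mtDNA itself were not analysed here.

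Library totals ran from 30815860 to 47279297 counts, and the scaling factors between libraries (TMM) from 0.934 to 1.06. Libraries of a group correlated at 0.996 or more. By a chi-square test of counts per degree of freedom, HS scramble replicate 3, the shallowest library, stood apart from the other two of its group (at least 16.1, against 4.22 between replicates 1 and 2), as did HS siLonp1 replicate 1 (at least 13.9, against 3.62 between replicates 2 and 3). Between HS+REC libraries of a group the value was 15.6 to 27.5 for every pair. Calls of the 9 genes that rest on either of these 2 libraries are given with and without it. LONP1 was on average at 221 CPM (counts scaled to a common library size) in Ctrl scramble and 20.4 in Ctrl siLonp1. The same pair of values was 214 and 11.7 in heated cells and 218 and 27.2 after recovery. Of 9 markers of colon epithelium, 6 were above 1 CPM in every library (KRT8, KRT18, KRT19, EPCAM, VIL1 and CDX2), whereas CDX1 was at 0, LGALS4 did not exceed 0.458 CPM and CDH17 ran from 0.947 to 12.6 CPM. The summed level of that list was higher with siLonp1 in Ctrl (9173 to 9589 against 10160 to 10858 CPM) and HS (9747 to 10160 against 11404 to 11981) and overlapped in HS+REC. Of 5 immune markers, PTPRC and CD3E did not exceed 0.0741 CPM, whereas CD14 reached 1.93 and CD68, a lysosomal protein, ran from 10.7 to 18.1 CPM. The immune sum was higher with siLonp1 without overlap, at 11.2 to 12.4 against 13.6 to 15.9 CPM in Ctrl, 11.4 to 13.6 against 16.5 to 19.7 in HS, and 11.6 to 12.8 against 15.2 to 18.8 in HS+REC. Of 3 endothelial markers, CDH5 did not exceed 0.105 CPM and VWF reached 1.27, and their sum overlapped between siRNA groups in each condition. Of 5 fibroblast markers, COL3A1 was at 0 and COL1A2 at no more than 0.0511 CPM in every library, but the summed level of the list, which came from COL1A1 and LUM, ran from 40.4 to 46.0 CPM in Ctrl scramble and from 21.1 to 22.6 in Ctrl siLonp1, from 41.3 to 45.2 and 24.6 to 28.4 in HS, and from 60.5 to 62.0 and 44.8 to 46.2 in HS+REC. The part of these differences in the results was not tested. RNA came from whole cultures, so a change in every cell and a change in the share of cells with a transcript cannot be told apart.

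The mRNAs of the 9 genes differed widely in level, with TFAM highest and the accessory subunit of the DNA polymerase among the lowest. Over all libraries a gene had between 384 and 12817 counts, and the coefficient of variation within a group lay between 0.497% and 11%. Levels were compared between genes as CPM per kilobase of merged exons in GENCODE 44. The counts were made by the authors over UCSC gene models, which may differ in length, so these levels and the shares of overlapping exons given with POLG and TFB1M are approximate. In Ctrl scramble cells TFAM stood at 51.3 ± 0.278 CPM per kilobase (SD, n = 3) and SSBP1 at 31.5 ± 0.156. TFB2M at 22.7 ± 0.851, POLRMT at 17.5 ± 0.427 and MGME1 at 16.0 ± 0.591 formed a middle group. TFB1M at 8.16 ± 0.107, POLG at 7.59 ± 0.0903, TOP1MT at 3.26 ± 0.0647 and POLG2 at 2.77 ± 0.108 were the lowest. Neighbours in this order were further apart than their SDs, but the order depends on the length chosen. With the longest annotated transcript, SSBP1 at 59.8 CPM per kilobase passed TFAM at 54.0, POLRMT at 23.5 passed TFB2M at 22.7, and TOP1MT was at 10.3. In Ctrl siLonp1 cells TOP1MT was at 8.72 ± 0.496 CPM per kilobase and TFB1M at 8.68 ± 0.199, so that these neighbours did not differ beyond their spread, and in HS scramble cells MGME1 stood in place 3 at 24.3 ± 0.256.

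**Figure D1:**
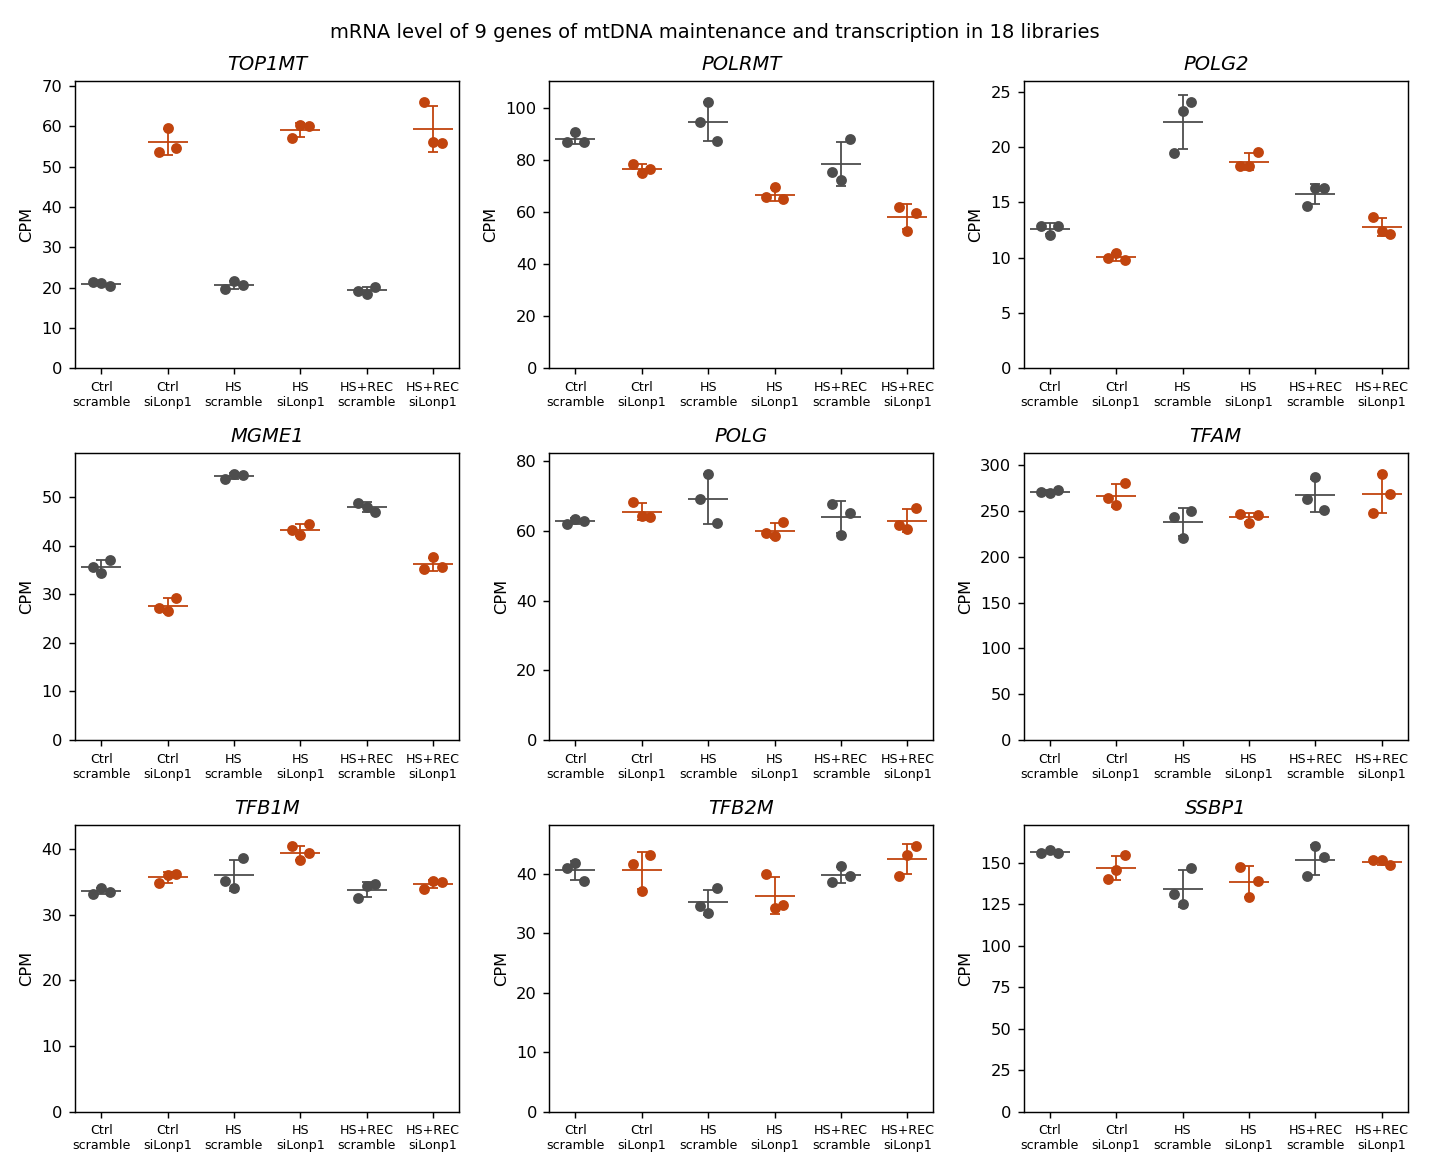
Level of each of the 9 genes in CPM (vertical axes, from 0) in the 6 groups (horizontal axes). Points are the 3 libraries of a group in order of replicate number, and horizontal lines with bars are the mean and SD; grey marks scramble and orange siLonp1. TOP1MT lay between 18.5 and 21.7 CPM in all 9 scramble libraries and between 53.7 and 66.0 in all 9 siLonp1 libraries, whereas TFAM overlapped between the siRNAs in each condition.

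The bases upstream of 4 of the genes are shown for some of the patterns described below: POLG2 and MGME1 rose together in heat, POLRMT was lower in siLonp1 cells, and TFAM is the LONP1 substrate. Bases of TOP1MT, which differed most with siLonp1, are not shown. The bases shown come from RefSeq windows on GRCh38.p14 that start 250 bases before the gene start, on the gene's strand, and any base that lies in an annotated exon of the gene was left off. Capitals mark the letters GGGCGG of an SP1 motif, CCGGAAG of an ETS or GABPA motif and GCGCNTGCG of an NRF1 motif, on either strand and overlapping where they overlap. NRF1 and GABPA are activators long known for nuclear genes of mitochondrial function. Positions are chr17:64497055-64497304 for POLG2, chr20:17968768-17969017 for MGME1, chr19:633538-633787 for POLRMT and chr10:58385160-58385344 for TFAM, with POLG2 and POLRMT on the minus strand.
POLG2: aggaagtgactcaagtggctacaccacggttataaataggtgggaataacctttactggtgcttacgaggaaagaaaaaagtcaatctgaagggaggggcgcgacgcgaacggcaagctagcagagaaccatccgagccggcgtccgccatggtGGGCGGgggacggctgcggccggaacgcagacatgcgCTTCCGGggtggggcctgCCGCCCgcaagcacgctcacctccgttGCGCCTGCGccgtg
MGME1: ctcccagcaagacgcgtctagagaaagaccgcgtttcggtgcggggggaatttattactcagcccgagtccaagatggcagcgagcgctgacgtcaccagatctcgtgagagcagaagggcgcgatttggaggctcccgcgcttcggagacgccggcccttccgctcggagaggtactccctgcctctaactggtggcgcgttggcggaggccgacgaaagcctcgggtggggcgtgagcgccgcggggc
POLRMT: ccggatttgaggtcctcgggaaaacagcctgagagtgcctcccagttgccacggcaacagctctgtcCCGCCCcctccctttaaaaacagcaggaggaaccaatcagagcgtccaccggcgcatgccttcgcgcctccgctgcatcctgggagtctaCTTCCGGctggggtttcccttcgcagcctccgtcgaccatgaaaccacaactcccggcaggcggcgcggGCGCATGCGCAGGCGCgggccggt
TFAM: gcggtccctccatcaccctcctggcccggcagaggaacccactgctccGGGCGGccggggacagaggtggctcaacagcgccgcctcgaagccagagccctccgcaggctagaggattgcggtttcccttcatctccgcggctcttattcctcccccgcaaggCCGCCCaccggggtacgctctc
The search covered 8 of the genes and left out TOP1MT. The NRF1 letters occurred in the full window of 5 of the 8 genes searched (TFAM, POLG2, POLRMT, TFB1M and TFB2M), and in 6.54% of all 35116 windows. That of TFAM lies in the bases left off above. The windows of these 5 genes held 62.0% to 69.2% G and C, against a median of 58.0% over all windows. SSBP1 had 3 windows, so counts of genes and shares of windows are unlike measures. The ETS letters occurred for POLG2, POLRMT, TFB1M and SSBP1, against 8.52% of all windows, and the SP1 letters for every gene searched other than MGME1, against 42.6%. The 250 bases of MGME1 held none of the motifs searched. Inverted units of the heat shock element, searched as GAANNTTC, were in no window of the 8 genes, against 5.78% of all windows, and AAGATGGCG of YY1 was in 1 window of SSBP1, against 0.652%. These are matches of letters, and binding was not measured.

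Silencing of Lonp1 addressed whether cells with little LONP1 carry other amounts of these mRNAs. TOP1MT, the mitochondrial topoisomerase, was 2.67- to 3.08-fold higher in siLonp1 cells, MGME1, POLG2 and POLRMT were 1.15- to 1.42-fold lower, and TFAM differed by less than the spread between replicates. In Ctrl, 4 of the 9 genes passed the test at a Benjamini-Hochberg adjusted p (FDR) of at most 0.05 (1 higher, 3 lower), when 49.2% of the 12832 genes tested did (26.3% higher, 22.9% lower). In HS, 5 passed (1 higher, 4 lower) against 54.8% of all genes (28.1% higher, 26.7% lower), and in HS+REC 4 passed (1 higher, 3 lower) against 54.1% (26.8% higher, 27.3% lower). The share of the 9 genes that passed was thus near that of all genes. With a fold change above 2 required as well, TOP1MT was the 1 gene that passed in each condition, against 4.17% of all genes in Ctrl, 4.17% in HS and 4.18% after recovery, of which 2.63%, 2.56% and 2.84% were higher. The median log2 fold change of the 9 genes was -0.02 in Ctrl, 0.03 during HS and -0.01 after recovery, beside 0.01, 0.00 and -0.00 for all genes.

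TOP1MT (chromosome 8, 143304384 to 143359979 on hg38, minus strand) relaxes the supercoils that arise when mtDNA is copied or transcribed. It was at 21.3, 21.1 and 20.5 CPM in the Ctrl scramble libraries and at 53.7, 59.7 and 54.7 CPM in Ctrl siLonp1. In HS it was at 19.6, 21.7 and 20.6 CPM with scramble and 57.1, 60.3 and 60.0 with siLonp1, and in HS+REC at 19.2, 18.5 and 20.2 against 66.0, 56.2 and 55.9. Every siLonp1 library lay above every scramble library, with no overlap in any condition. Against scramble, TOP1MT had a log2 fold change of 1.42 ± 0.0701 (SE, adjusted p = 2.49e-13) in Ctrl, 1.52 ± 0.0706 (adjusted p = 7.33e-14) in HS and 1.62 ± 0.0705 (adjusted p = 2.01e-14) after recovery by edgeR's quasi-likelihood test, or 2.67-, 2.86- and 3.08-fold. Ranked from the highest rise down, TOP1MT had rank 114 in Ctrl, rank 96 in HS and rank 81 after recovery, of 12832 genes. Heat itself left TOP1MT near its Ctrl level, with log2 fold changes of HS against Ctrl of -0.02 (95% interval -0.17 to 0.13) in scramble and 0.08 (-0.06 to 0.22) in siLonp1 cells.

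POLRMT (chromosome 19, 617221 to 633537) is the RNA polymerase of mitochondria and also makes the primers for replication. In Ctrl it was at 87.1, 90.9 and 87.3 CPM with scramble and at 78.7, 75.1 and 76.6 with siLonp1. In HS the scramble libraries held 94.7, 102 and 87.4 CPM and the siLonp1 libraries 65.8, 69.7 and 65.0, and in HS+REC 75.6, 72.3 and 88.2 against 62.1, 52.8 and 59.9. The siRNA groups did not overlap in any condition. The log2 fold change of siLonp1 against scramble was -0.20 ± 0.0735 (adjusted p = 0.025) in Ctrl, -0.51 ± 0.0739 (adjusted p = 5.28e-06) in HS and -0.43 ± 0.0742 (adjusted p = 3.63e-05) in HS+REC. The call in Ctrl was lost without Ctrl scramble replicate 2 or replicate 2 or 3 of Ctrl siLonp1, at log2 -0.20 to -0.18 with adjusted p from 0.0588 to 0.0832, and those in HS and HS+REC passed without any 1 library.

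MGME1 (chromosome 20, 17969018 to 17991122), an exonuclease that trims single-stranded ends of newly copied mtDNA, was lower with siLonp1 in each condition. It was at 35.7, 34.3 and 37.0 CPM in Ctrl scramble and at 27.3, 26.5 and 29.3 in Ctrl siLonp1, at 53.7, 54.7 and 54.5 against 43.2, 42.1 and 44.5 in HS, and at 48.8, 48.1 and 46.9 against 35.1, 37.7 and 35.6 in HS+REC. No siLonp1 library reached a scramble library of the same condition. MGME1 had a log2 fold change of -0.37 ± 0.0581 (adjusted p = 1.87e-05), -0.33 ± 0.0566 (adjusted p = 4.13e-05) and -0.41 ± 0.0569 (adjusted p = 2.78e-06) in Ctrl, HS and HS+REC.

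POLG2 (chromosome 17, 64477785 to 64497054) is the accessory subunit that keeps polymerase gamma on its template. It was at 12.9, 12.0 and 12.9 CPM in Ctrl scramble and at 9.92, 10.5 and 9.81 in Ctrl siLonp1, and in HS+REC at 14.7, 16.3 and 16.3 against 13.7, 12.4 and 12.2, without overlap. In HS the scramble libraries at 19.5, 23.3 and 24.1 CPM overlapped slightly with the siLonp1 libraries at 18.3, 18.3 and 19.5. POLG2 had a log2 fold change of -0.32 ± 0.085 (adjusted p = 0.00311) in Ctrl, -0.25 ± 0.0794 (adjusted p = 0.0105) in HS and -0.30 ± 0.0822 (adjusted p = 0.00349) in HS+REC. Without HS scramble replicate 2 the value in HS was -0.21 and its call was lost (adjusted p = 0.053).

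POLG (chromosome 15, 89305198 to 89334861), the catalytic subunit of polymerase gamma, passed for siLonp1 in HS but not in Ctrl or HS+REC. In HS it was at 69.0, 76.3 and 62.2 CPM with scramble and at 59.3, 58.5 and 62.6 with siLonp1, with overlap, and passed the test at a log2 fold change of -0.20 ± 0.0692 (adjusted p = 0.0158). Leaving out replicate 2 of either HS group ended that call, within -0.18 to -0.13 and with adjusted p from 0.0584 to 0.145. In Ctrl, where the siLonp1 libraries lay just above the scramble libraries, the log2 fold change was 0.06 (95% interval -0.08 to 0.20), and in HS+REC -0.02 (-0.17 to 0.12), neither of which passed. Of the POLG exons, 5.53% overlap with exons of FANCI on the other strand, which was at 122 to 161 CPM by library size only, without TMM factors. With exons of POLGARF on the same strand 9.46% overlap. The strand setting of the counting is not given in the sources used here.

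TFAM (chromosome 10, 58385345 to 58399220) was at 271, 270 and 273 CPM in Ctrl scramble and at 264, 256 and 280 in Ctrl siLonp1. In HS it was at 243, 220 and 249 against 247, 237 and 245, and in HS+REC at 264, 287 and 251 against 248, 290 and 268. The siRNA groups overlapped in every condition. The log2 fold change of siLonp1 against scramble was -0.02 (95% interval -0.16 to 0.11) in Ctrl, 0.03 (-0.10 to 0.16) in HS and 0.01 (-0.12 to 0.14) in HS+REC, with adjusted p of 0.788, 0.694 and 0.911. These intervals exclude a change of the TFAM mRNA as large as that of MGME1 in the same condition. They say nothing of the TFAM protein.

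TFB2M (chromosome 1, 246540561 to 246566261), the factor that opens the mtDNA promoter for POLRMT, TFB1M (chromosome 6, 155256134 to 155314493), a related methyltransferase of the small mitochondrial rRNA, and SSBP1 (chromosome 7, 141738334 to 141787922), which coats single-stranded mtDNA, did not pass for siLonp1 in any condition. TFB2M had log2 fold changes of 0.00, 0.05 and 0.09 in Ctrl, HS and HS+REC, and SSBP1 of -0.09, 0.05 and -0.01. TFB1M was nearest to the limit in HS, at 35.2, 34.0 and 38.6 CPM with scramble and 40.4, 38.3 and 39.4 with siLonp1, a log2 fold change of 0.13 (95% interval 0.01 to 0.25, adjusted p = 0.056). It passed without HS scramble replicate 3 or HS+REC siLonp1 replicate 2, within 0.13 to 0.18 and with adjusted p from 0.0152 to 0.05. Of the exons of TFB1M, 30.7% overlap with those of TIAM2 on the other strand, which was at 1.02 to 2.75 CPM by library size only. With exons of the lncRNA ENSG00000235381 on the same strand 14.4% overlap.

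**Figure D2:**
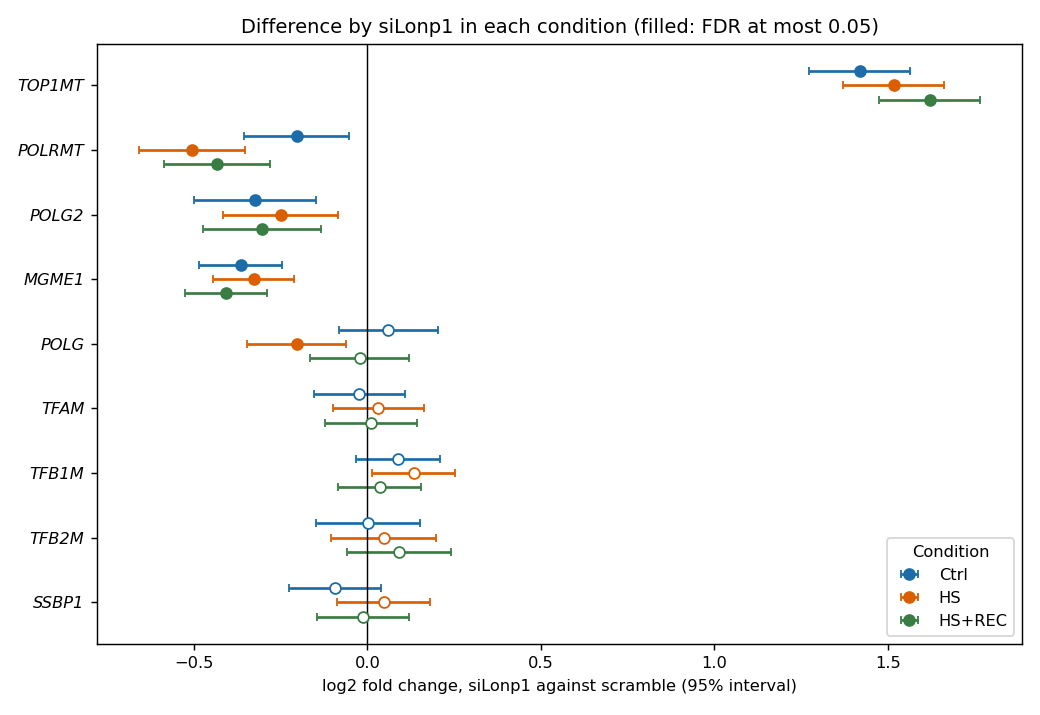
Log2 fold change of siLonp1 against scramble (horizontal axis) for the 9 genes (vertical axis) in Ctrl (blue), HS (orange) and HS+REC (green). Points are estimates of the edgeR model over 18 libraries, bars 95% intervals, and filled points passed at an adjusted p of at most 0.05. TOP1MT lies at 1.42 to 1.62, POLRMT, POLG2 and MGME1 lie below 0 in all 3 conditions, and the intervals of TFAM cross 0 in each.

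HS was compared with Ctrl within each siRNA arm. POLG2 and MGME1 rose in both siRNA arms by 1.52- to 1.86-fold, and TFAM, TFB2M and SSBP1 fell by 1.14- to 1.17-fold in scramble cells. In scramble cells 5 of the 9 genes passed for HS against Ctrl (2 higher, 3 lower), against 36.0% of all genes (18.6% higher, 17.3% lower), and in siLonp1 cells 3 passed (2 higher, 1 lower), against 42.2% (20.2% higher, 22.1% lower). None of the 9 passed with a fold change above 2, when 3.30% of all genes did in scramble and 4.57% in siLonp1 cells. The median log2 fold change of the 9 genes was 0.10 in scramble and -0.08 in siLonp1 cells, beside -0.01 and 0.00 for all genes.

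POLG2 was at 12.9, 12.0 and 12.9 CPM in Ctrl scramble and at 19.5, 23.3 and 24.1 in HS scramble, and at 9.92, 10.5 and 9.81 against 18.3, 18.3 and 19.5 in siLonp1 cells. Each HS library lay above each Ctrl library of its arm. The heat effect was a log2 fold change of 0.82 ± 0.081 (adjusted p = 2.31e-08) in scramble and 0.89 ± 0.0837 (adjusted p = 6.71e-09) in siLonp1 cells, or 1.77- and 1.86-fold. In scramble cells 4.95% of all genes changed by as much in either direction, and in siLonp1 cells 5.68%.

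MGME1 rose from 35.7 ± 1.32 CPM (SD, n = 3) in Ctrl to 54.3 ± 0.571 in HS in scramble cells and from 27.7 ± 1.46 to 43.3 ± 1.19 in siLonp1 cells. Neither arm had an overlap between Ctrl and HS libraries. On the log2 scale MGME1 rose by 0.61 ± 0.0568 (adjusted p = 9.38e-09) in scramble and 0.65 ± 0.058 (adjusted p = 3.33e-09) in siLonp1 cells, or 1.52- and 1.56-fold. The heat effects on both genes passed without any 1 library. The level of MGME1 reached by heat in siLonp1 cells was still below that in heated scramble cells, as given above.

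TFAM fell in HS scramble cells, from 271 ± 1.47 to 238 ± 15.4 CPM, with no overlap and a log2 fold change of -0.19 ± 0.0638 (adjusted p = 0.0227). TFB2M fell from 40.5 ± 1.52 to 35.2 ± 2.14 CPM, log2 -0.21 ± 0.0727 (adjusted p = 0.0294), and SSBP1 from 157 ± 0.778 to 134 ± 11.2 CPM, log2 -0.22 ± 0.0643 (adjusted p = 0.00915), also without overlap. HS scramble replicate 2 held the lowest level of each of the 3 genes, at 220, 33.4 and 125 CPM. Without that library all 3 calls were lost, and SSBP1 was then at log2 -0.17 (adjusted p = 0.0686). The call for TFAM was also lost without any 1 of the Ctrl scramble libraries, within -0.19 to -0.14 and adjusted p from 0.0517 to 0.145 over the 4 fits. That for TFB2M was also lost without Ctrl scramble replicate 1 or 2 or HS scramble replicate 1, within -0.20 to -0.17 and adjusted p from 0.0778 to 0.128. In siLonp1 cells the log2 fold changes were -0.13 for TFAM, -0.16 for TFB2M and -0.08 for SSBP1, and none passed (adjusted p = 0.0954, 0.0812 and 0.325), although the HS libraries of TFAM did not overlap with Ctrl. TFB2M passed there without Ctrl siLonp1 replicate 2 or HS siLonp1 replicate 1, at -0.23 to -0.22 (adjusted p from 0.0187 to 0.0277).

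The remaining genes moved little in heat. POLRMT fell in siLonp1 cells, from 76.8 ± 1.82 to 66.8 ± 2.52 CPM with no overlap, log2 -0.20 ± 0.074 (adjusted p = 0.033), a call lost without replicate 1 or 3 of either group (log2 -0.20 to -0.18, adjusted p from 0.0655 to 0.105). In scramble cells its value was 0.10 (95% interval -0.05 to 0.25). POLG had log2 fold changes of 0.14 in scramble and -0.12 in siLonp1 cells, and TFB1M of 0.10 and 0.14, none of which passed. Without HS scramble replicate 3, POLG passed in scramble cells at 0.23 (adjusted p = 0.0109). TFB1M in siLonp1 cells was at 34.7, 36.0 and 36.2 CPM in Ctrl and 40.4, 38.3 and 39.4 in HS, without overlap, at an adjusted p of 0.0518, and passed in 4 of the 18 fits without 1 library (0.14 to 0.16).

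**Figure D3:**
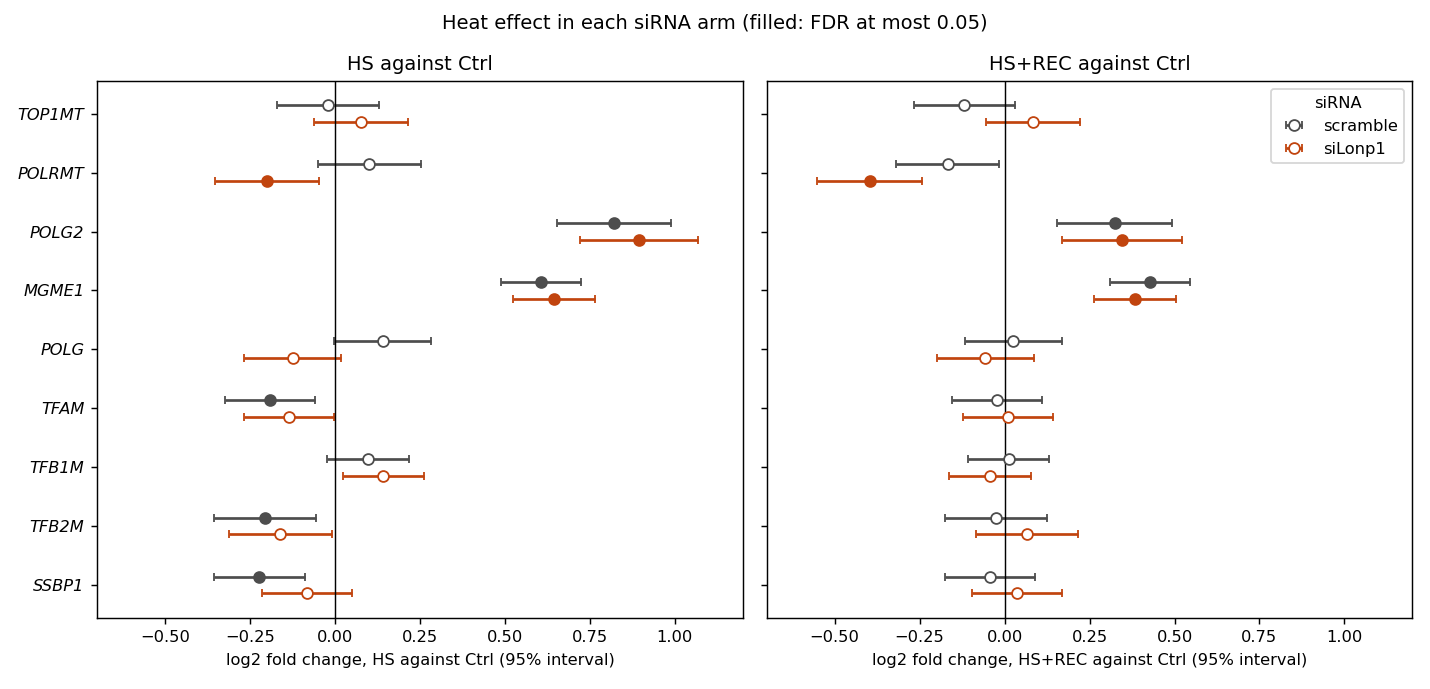
Log2 fold change against Ctrl (horizontal axes) of HS (left) and HS+REC (right) for the 9 genes, in scramble (grey) and siLonp1 (orange) cells. Points are edgeR estimates, bars 95% intervals, and filled points passed at an adjusted p of at most 0.05. POLG2 at 0.82 and 0.89 and MGME1 at 0.61 and 0.65 in HS lie apart from the other genes, and both remain above 0 in HS+REC.

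After recovery, POLG2 and MGME1 were still above Ctrl in both arms, and TFAM, TFB2M and SSBP1 did not pass against Ctrl in either arm. HS+REC and HS were compared with the same Ctrl libraries, so these comparisons share their controls. In scramble cells 2 of the 9 genes passed for HS+REC against Ctrl (both higher), against 42.3% of all genes (21.8% higher, 20.5% lower), and in siLonp1 cells 3 passed (2 higher, 1 lower), against 51.2% (24.6% higher, 26.6% lower). None passed with a fold change above 2, against 4.46% and 5.71% of all genes. POLG2 had a log2 fold change of 0.32 ± 0.0819 (adjusted p = 0.00251) in scramble and 0.34 ± 0.0854 (adjusted p = 0.00166) in siLonp1 cells, and MGME1 of 0.43 ± 0.0568 (adjusted p = 1.61e-06) and 0.38 ± 0.0582 (adjusted p = 6.72e-06). None of the HS+REC libraries overlapped with Ctrl for either gene.

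POLRMT was lower than Ctrl after recovery in siLonp1 cells, at 62.1, 52.8 and 59.9 against 78.7, 75.1 and 76.6 CPM, log2 -0.40 ± 0.0743 (adjusted p = 9.56e-05). In scramble cells its log2 fold change was -0.17 ± 0.0733 (adjusted p = 0.0707) with overlap, and it passed without HS+REC scramble replicate 3, at -0.26 (adjusted p = 0.00627). TFAM had log2 fold changes of -0.02 (95% interval -0.15 to 0.11) in scramble and 0.01 (-0.12 to 0.14) in siLonp1 cells. TFB2M was at -0.02 and 0.07 and SSBP1 at -0.04 and 0.04.

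Between HS and HS+REC, 4 of the 9 genes passed in scramble cells (1 higher, 3 lower), against 26.8% of all genes (14.2% higher, 12.7% lower), and 5 in siLonp1 cells (1 higher, 4 lower), against 31.9% (16.3% higher, 15.6% lower). None passed with a fold change above 2, against 1.90% and 2.57% of all genes. POLG2 fell by 0.50 ± 0.0798 on the log2 scale in scramble (adjusted p = 3.97e-05) and by 0.55 ± 0.082 in siLonp1 cells (adjusted p = 1.18e-05), in both arms without overlap and without loss of the call when any 1 library was left out. MGME1 fell by 0.18 ± 0.0562 (adjusted p = 0.0185) and 0.26 ± 0.0573 (adjusted p = 0.000968), and in scramble cells the call ended without replicate 2 of HS or replicate 3 of HS+REC, at -0.17 and -0.16 with adjusted p of 0.0581 and 0.0584.

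Smaller shifts between HS and HS+REC did not hold without every 1 of the libraries. On the log2 scale POLRMT fell by 0.27 in scramble cells (adjusted p = 0.00754), which ended without replicate 2 of either group (log2 -0.21, adjusted p from 0.0581 to 0.0663), and by 0.20 in siLonp1 cells (adjusted p = 0.0461), which was lost in 12 of the 18 fits without 1 library (log2 -0.22 to -0.13). SSBP1 rose by 0.18 in scramble cells (adjusted p = 0.042), lost in 9 of the 18 fits (0.13 to 0.18). In siLonp1 cells TFB2M rose by 0.23 (adjusted p = 0.0193), lost without replicate 2 or 3 of HS siLonp1 or replicate 3 of HS+REC siLonp1 (0.19, adjusted p from 0.0883 to 0.101), and TFB1M fell by 0.19 (adjusted p = 0.0164), lost without HS siLonp1 replicate 1 (-0.17, adjusted p = 0.064). TFAM, at 0.17 in scramble and 0.15 in siLonp1 cells, was short of the limit (adjusted p = 0.0543 and 0.0874), although each HS+REC library of an arm was above each of its HS libraries. It passed in scramble cells in 4 of the 18 fits without 1 library (0.16 to 0.21) and in siLonp1 cells without HS+REC siLonp1 replicate 1 (0.19, adjusted p = 0.026). Without HS scramble replicate 3, 7 of the 9 genes passed in scramble cells, among them POLG at -0.20 (adjusted p = 0.0338) and TFB2M at 0.21 (adjusted p = 0.0409). Over the fits without 1 library, 20.8% to 29.3% of all genes passed for this comparison in scramble cells.

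**Figure D4:**
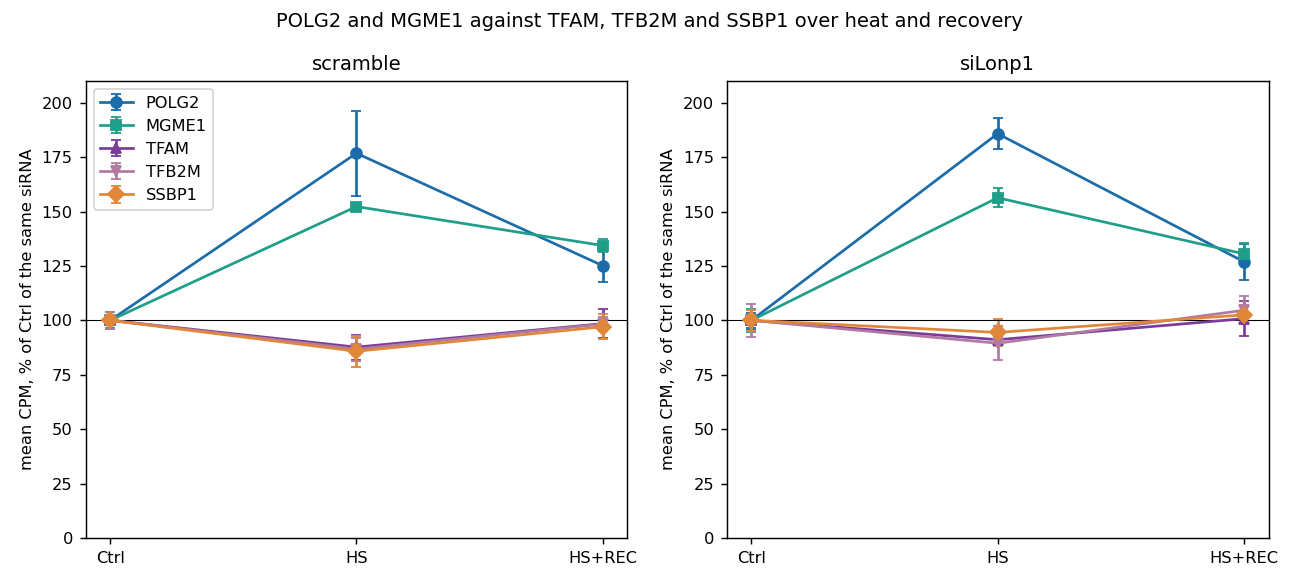
Mean level in percent of the Ctrl mean of the same siRNA (vertical axis) in Ctrl, HS and HS+REC for POLG2, MGME1, TFAM, TFB2M and SSBP1, in scramble (left) and siLonp1 (right) cells. Bars are the SD of 3 libraries as a percent of the same Ctrl mean. POLG2 and MGME1 rise in HS and come part of the way back, and the other 3 genes lie slightly below 100% in HS and near it in HS+REC.

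Whether silencing altered the response to heat was asked with the interaction of siRNA and heat. None of the 9 genes passed for HS by edgeR's quasi-likelihood test (1.87% of all genes did) or for HS+REC (1.58% did). DESeq2 and edgeR's likelihood ratio test also called 0 of the 9, when they called 3.43% and 3.65% of all genes for HS and 2.47% and 2.81% for HS+REC. At an unadjusted p under 0.05 there were 2 of the 9 for HS, POLG and POLRMT, when 15.2% of all genes were under it, and 1 for HS+REC, POLRMT, against 13.6%. The rise of POLG2 in HS differed between arms by 0.07 (95% interval -0.17 to 0.31) and that of MGME1 by 0.04 (-0.13 to 0.21) on the log2 scale. The values furthest from 0 were those of POLRMT, at -0.30 (-0.52 to -0.09, adjusted p = 0.149), and POLG, at -0.26 (-0.47 to -0.06, adjusted p = 0.185). Of all genes 240 passed for HS, and without 1 library this number ran from 98 (without HS scramble replicate 1) to 526 (without HS scramble replicate 3). For HS+REC 203 passed, and from 96 (without HS+REC scramble replicate 1) to 304 (without HS+REC scramble replicate 3) without 1 library. That of POLG passed without HS scramble replicate 3, at -0.35 (adjusted p = 0.0411), and that of POLRMT when only the groups compared were fitted, at -0.31 (adjusted p = 0.0244), a fit that called 735 of all genes. The higher level of TOP1MT with siLonp1 differed between HS and Ctrl by 0.10 (-0.11 to 0.30) and between HS+REC and Ctrl by 0.20 (-0.00 to 0.41, adjusted p = 0.373).

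Across the 18 libraries, POLG2 and MGME1 ran together (Pearson r = 0.92 of log2 CPM), as did TFAM with TFB2M (r = 0.82) and SSBP1 (r = 0.79), and POLRMT ran opposite to TOP1MT (r = -0.75). The points are 3 libraries of each of 6 groups and share their depth and scaling, so these values describe the group pattern and are not tests. POLG and POLG2, which form 1 enzyme, had r = 0.08.

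The other genes of the pathway were taken from lists of replication and repair factors, nucleoid and transcription factors, RNA processing factors and enzymes of nucleotide supply, with the regulators given in the closing section. Of 64 such genes, 63 could be tested. With siLonp1, 11 were higher and 18 lower in Ctrl, 11 and 22 in HS, and 10 and 26 in HS+REC. Of all genes, 26.3% were higher and 22.9% lower in Ctrl, 28.1% and 26.7% in HS, and 26.8% and 27.3% in HS+REC. In heat 62 were counted, without PPARGC1A, which passed the filter on low counts through heated libraries. For HS in scramble cells 8 were higher and 12 lower (18.6% and 17.3% of all genes), and for HS+REC 10 and 16 (21.8% and 20.5%). In siLonp1 cells the numbers were 7 and 19 for HS (20.2% and 22.1%) and 9 and 27 for HS+REC (24.6% and 26.6%). The same shares of all genes apply to each single list. None of the 63 passed with a fold change above 2 for siLonp1 in any condition.

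Among 14 partners of mtDNA replication and repair, 0 were higher and 6 lower with siLonp1 in Ctrl, 1 and 7 in HS, and 0 and 10 in HS+REC, with a median log2 fold change of -0.16, -0.20 and -0.24, where 26.3% of all genes were higher and 22.9% lower in Ctrl, 28.1% and 26.7% in HS, and 26.8% and 27.3% in HS+REC. MUTYH, a glycosylase that removes adenine opposite oxidised guanine, was at 31.9 ± 1.12 CPM in Ctrl scramble and 20.9 ± 2.04 in Ctrl siLonp1, with log2 fold changes of -0.61, -0.59 and -0.85 in Ctrl, HS and HS+REC (adjusted p at most 1.06e-06). TOP3A, a topoisomerase that separates replicated mtDNA circles, was lower at log2 -0.26, -0.53 and -0.57, opposite to TOP1MT. The flap nuclease and helicase DNA2 was at log2 -0.32, -0.34 and -0.35, and the abasic site endonuclease APEX1 at log2 -0.23, -0.25 and -0.48. These 4 genes passed in each condition without any 1 library. UNG, which excises uracil, also passed in all 3 conditions, at log2 -0.17, -0.37 and -0.19, but its call in Ctrl was lost in 5 fits without 1 Ctrl library (adjusted p from 0.0524 to 0.167) and that in HS+REC without HS+REC scramble replicate 3 (-0.14, adjusted p = 0.0706). PIF1, a helicase, was at log2 -0.34 in Ctrl (adjusted p = 0.0176), lost without Ctrl scramble replicate 2 or 3 or Ctrl siLonp1 replicate 1 or 3 (adjusted p from 0.0621 to 0.104). The replicative helicase TWNK, listed under its older symbol C10orf2, was at log2 -0.09 in Ctrl (adjusted p = 0.288).

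In heat, 2 of these 14 genes were higher and 3 lower in scramble cells and 1 and 5 in siLonp1 cells, and in HS+REC 1 and 2 in scramble and 0 and 8 in siLonp1 cells. EXOG, a mitochondrial nuclease of repair, rose from 13.2 ± 0.649 to 19.7 ± 0.713 CPM, log2 0.58 (adjusted p = 3.48e-06), and log2 0.72 in siLonp1 cells, and was at 13.9 ± 1.3 CPM in HS+REC scramble. TOP3A rose by log2 0.41 (adjusted p = 4.92e-05) in scramble cells. FEN1, a flap nuclease shared with the nucleus, fell by 0.31 log2 units in scramble and by 0.62 in siLonp1 cells (adjusted p = 0.000185 and 6.18e-09). Its interaction of -0.32 passed narrowly (adjusted p = 0.0473) and was lost in 11 of 18 fits without 1 library (adjusted p from 0.0629 to 0.122), with RLE factors (adjusted p = 0.056) and with the replicate number as a block (adjusted p = 0.0545). In HS+REC scramble cells DNA2 was lower at log2 -0.46 and UNG at log2 -0.32, and TOP3A higher at log2 0.24.

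Of 10 partners in transcription and the nucleoid, 1 was higher and 4 lower with siLonp1 in Ctrl, 3 and 4 in HS, and 3 and 3 in HS+REC. ATAD3A, a membrane ATPase that contacts nucleoids, was lower at log2 -0.56, -0.90 and -0.80 (adjusted p at most 4.49e-06), from 132 ± 7.09 to 70.4 ± 0.617 CPM in HS. Its paralog ATAD3B was lower at log2 -0.29, -0.84 and -0.78, where the value in Ctrl did not pass without Ctrl siLonp1 replicate 3 (-0.24, adjusted p = 0.0642). The pair is nearly identical in sequence and how reads shared by several genes were counted is not given in the sources used here, so their separate values are uncertain. ATAD3B had an interaction with HS of -0.55 (adjusted p = 0.0295), lost in 10 of 18 fits without 1 library (adjusted p from 0.0554 to 0.0908). MTERF1, a terminator of mitochondrial transcription, was higher at log2 0.20, 0.28 and 0.50, and its call in Ctrl (adjusted p = 0.0422) was lost in 5 fits without 1 Ctrl library (0.15 to 0.23) and with the replicate number as a block (adjusted p = 0.0559). With library size only it was at 0.13 in Ctrl and 0.19 in HS, and neither passed (adjusted p = 0.191 and 0.0527). PHB1, a scaffold protein of the inner membrane listed as PHB, was lower at log2 -0.31 in Ctrl (adjusted p = 0.00234). In heat, 1 of the 10 was higher and 1 lower in HS scramble (MTERF4 at log2 0.18 and ATAD3B at log2 -0.25) and the same numbers in HS+REC scramble (MTERF4 at log2 0.17 and MTERF3 at log2 -0.41), and the calls of MTERF4 and that of ATAD3B were lost in 4 to 6 fits without 1 library. In siLonp1 cells 2 were higher and 2 lower in HS, and 2 and 3 in HS+REC. Of those higher, MTERF2 at log2 0.55 in HS and TEFM, an elongation factor of mitochondrial transcription, at log2 0.33 in HS and 0.60 in HS+REC are named after their values were seen. ATAD3B fell there by 0.81 log2 units in HS (adjusted p = 2.5e-07) and was lower at log2 -0.67 in HS+REC (adjusted p = 2.72e-06). ATAD3A was lower at log2 -0.23 and -0.21 (adjusted p = 0.0261 and 0.0356), calls lost in 5 and 4 fits without 1 library. MTERF1 was higher at log2 0.46 and MTERF3 lower at log2 -0.34 in HS+REC siLonp1 (adjusted p = 3.67e-05 and 0.0026).

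Of 17 factors of mitochondrial RNA processing and stability, 3 were higher and 5 lower with siLonp1 in Ctrl, 1 and 5 in HS, and 2 and 7 in HS+REC. FASTK, an RNA-binding protein needed for the ND6 transcript, was lower at log2 -0.58, -0.48 and -0.64 (adjusted p at most 5.22e-06), and ELAC2, which cuts tRNA 3′ ends, at log2 -0.21, -0.41 and -0.39. SUPV3L1, the helicase of the RNA degradosome, was lower at log2 -0.20, -0.37 and -0.18, and TBRG4 at log2 -0.17, -0.29 and -0.38, where the value of TBRG4 in Ctrl was lost in 5 fits without 1 Ctrl library (-0.19 to -0.14). FASTKD1 was higher at log2 0.23 in Ctrl (adjusted p = 0.0131), lost without Ctrl scramble replicate 3 (0.19, adjusted p = 0.0711), and HSD17B10 lower at log2 -0.25 (adjusted p = 0.0187), lost without Ctrl scramble replicate 2 or Ctrl siLonp1 replicate 2 or 3 (adjusted p from 0.0646 to 0.0965). In heat, 2 of the 17 were higher and 4 lower in scramble cells, and 3 and 6 in HS+REC, and in siLonp1 cells 2 and 8 in HS and 4 and 8 in HS+REC. TRMT10C and PRORP (listed as KIAA0391), subunits of the RNase that cuts tRNA 5′ ends, fell in HS, at log2 -0.59 and -0.34 in scramble and -0.61 and -0.38 in siLonp1 cells (adjusted p at most 0.000435). FASTKD2, which is needed for the large mitochondrial rRNA, was at 47.7 ± 1.09 CPM in Ctrl scramble, 32.1 ± 3.46 in HS and 24.8 ± 1.25 in HS+REC, log2 -0.57 and -0.94 against Ctrl (adjusted p = 3.89e-06 and 1.26e-09), and in siLonp1 cells at log2 -0.53 and -1.10 (adjusted p = 7.55e-06 and 7.72e-11).

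Of 13 genes of nucleotide supply, TYMP was too low to test. With siLonp1, 3 of 12 were higher and 3 lower in Ctrl, 4 and 3 in HS, and 3 and 4 in HS+REC. TK2, the mitochondrial kinase that salvages pyrimidine nucleosides, was higher at log2 0.58, 0.57 and 0.62 (adjusted p at most 1.19e-07), from 36.6 ± 1.2 to 54.8 ± 4.81 CPM in Ctrl. SUCLG1, a subunit of succinyl-CoA ligase, was higher at log2 0.44, 0.77 and 0.57, and its partner subunit SUCLA2 lower at log2 -0.25, -0.19 and -0.30, of which that in HS (adjusted p = 0.0268) was lost in 4 fits without 1 HS library (-0.18 to -0.14). ABAT was higher at log2 0.36, 0.67 and 0.37, with the value in Ctrl lost without Ctrl scramble replicate 3 or Ctrl siLonp1 replicate 2 (0.28 and 0.30). RRM1, the large subunit of ribonucleotide reductase, was lower at log2 -0.33, -0.36 and -0.35. SLC25A36, a carrier of pyrimidine nucleotides, was lower at log2 -0.44 in Ctrl and -0.41 in HS+REC.

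Heat lowered TK2 in both arms, against the direction of siLonp1. It was at 26.4 ± 0.378 CPM in HS scramble and 20.1 ± 0.491 in HS+REC scramble, log2 -0.47 and -0.86 against Ctrl (adjusted p = 2.09e-06 and 1.04e-10), and at log2 -0.49 and -0.82 in siLonp1 cells. RRM2, the small subunit of ribonucleotide reductase, fell by 0.29 log2 units in HS and was lower at log2 -0.66 in HS+REC scramble (adjusted p = 0.000102 and 3.27e-10). SLC25A36 rose by log2 0.49 in HS scramble and was higher at log2 0.59 in HS+REC (adjusted p = 1.71e-05 and 9.84e-07). SUCLG1 fell by 0.29 log2 units in HS scramble (adjusted p = 0.00774), lost without HS scramble replicate 1 or 2 (adjusted p from 0.0535 to 0.0632). In all, 1 of the 12 was higher and 4 lower in HS scramble, and likewise 1 and 4 in HS+REC scramble. In siLonp1 cells the numbers were 1 and 2 in HS and 1 and 4 in HS+REC.

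**Figure D5:**
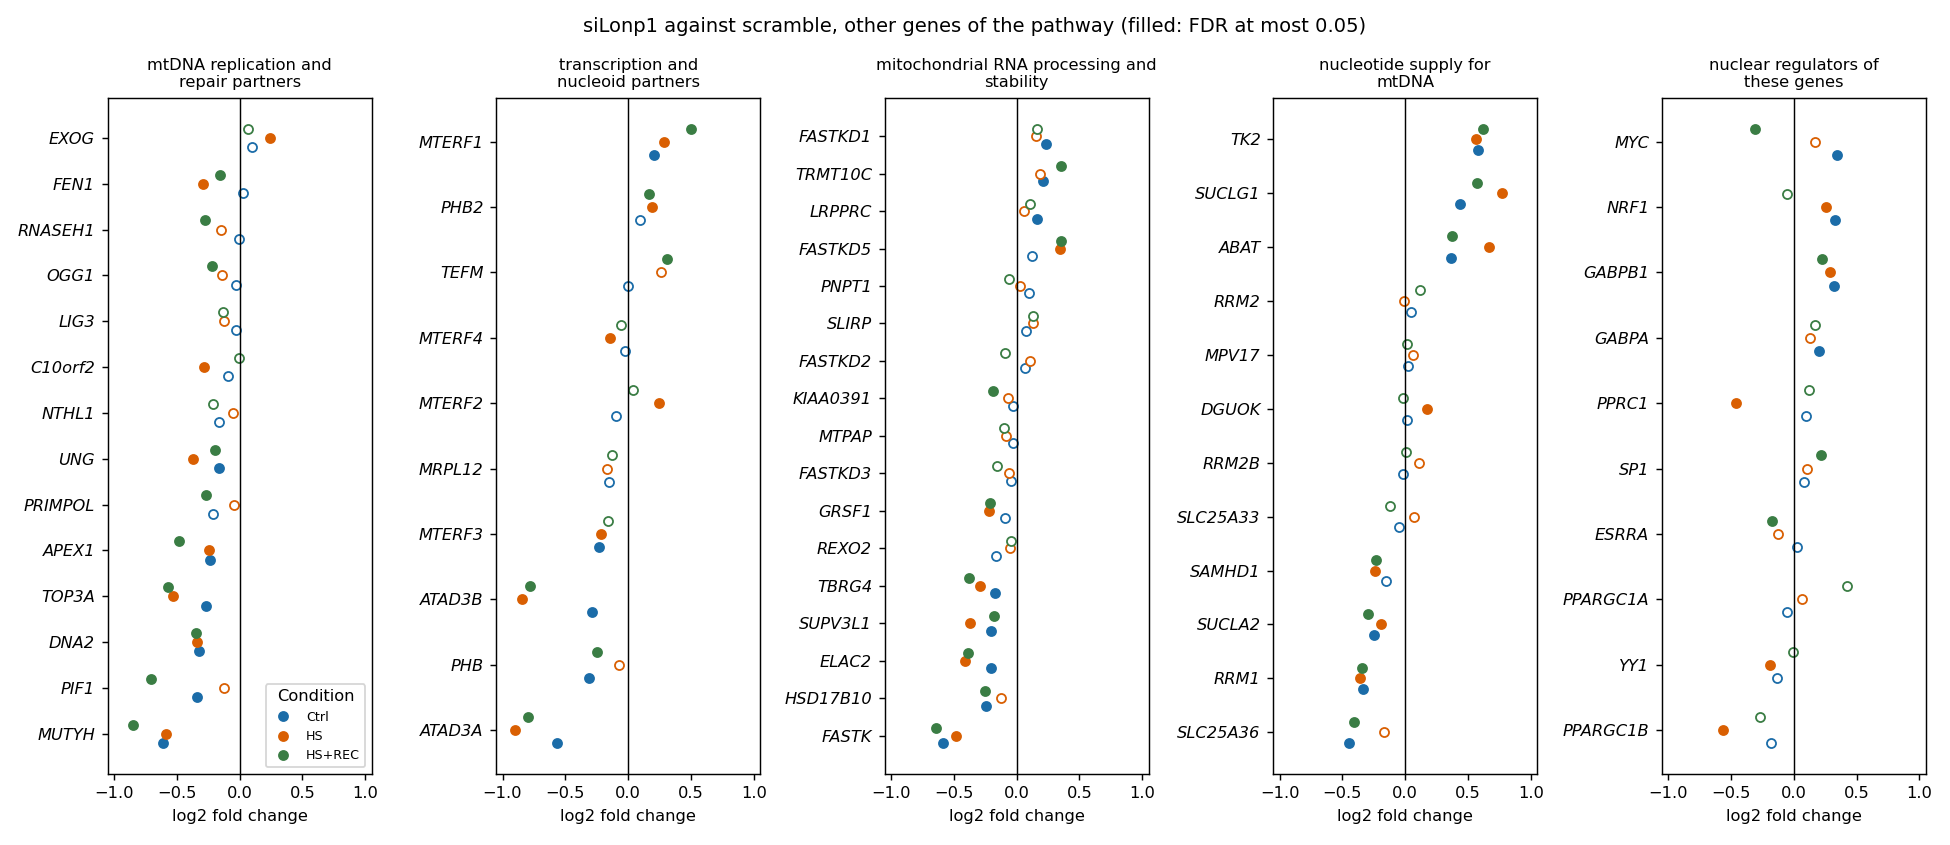
Log2 fold change of siLonp1 against scramble (horizontal axes) for the other genes of the pathway, 1 panel per list, in Ctrl (blue), HS (orange) and HS+REC (green). Filled points passed at an adjusted p of at most 0.05; errors are not drawn. MUTYH reaches -0.85 and ATAD3A -0.90, the lowest values of their panels, SUCLG1 reaches 0.77, the highest of its panel, and every point lies within 1 log2 unit of 0.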

How the data were processed

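The authors prepared stranded mRNA libraries, and the submitters' processing notes name STAR 2.7.3a, featureCounts and the build hg38. They deposited raw counts of reads for 26485 gene symbols in 18 libraries, with no normalization. The strand setting and the treatment of reads shared by genes are not given in the sources used here, and no removal of PCR duplicates is named.

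CPM here are counts scaled to 1e+06 per library with TMM factors. A gene entered the tests with CPM over 1 in 3 libraries or more, which left 12832. A model of all 6 groups was fitted in edgeR 4.0.16 (R 4.3.3) on TMM-scaled libraries, with quasi-likelihood tests for 11 contrasts and Benjamini-Hochberg adjustment over all genes tested. For each gene the 6 groups shared 1 estimate of the spread, so an SE does not follow the spread within the groups compared. The study's call also required a fold change above 2. Alternatives were RLE factors, library size only, other filters, DESeq2 1.42.0, the likelihood ratio test, only the groups compared, other thresholds, the replicate number as a block, the longest transcript as gene length, and each library left out.

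The genes and lists were chosen with earlier results of these data known. Named are the 9 genes, LONP1, the 5 genes most like TFAM and, from each list, the genes past the limit with 1 sign for siLonp1 in all 3 conditions and the 3 with the largest change past it for siLonp1 in Ctrl and for HS and HS+REC in scramble cells. TWNK, MTERF2 and TEFM were named after their values were seen. Positions and lengths are from GENCODE 44 on hg38, not the UCSC gene models the authors counted over, upstream bases from RefSeq on GRCh38.p14. Pairing was checked by the correlation of deviations from group means, which did not show that the replicate numbers pair the samples. With 3 libraries per group this check cannot show that the samples were unpaired.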

Additional observations from a re-analysis of the deposited data

Results flagged for a closer look

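Among the 9 genes no effect of heat differed between the siRNA arms past the limit. Of the other genes named, 4 and LONP1 did so by the interaction term of edgeR's quasi-likelihood test. Of the 63 list genes tested, 2 passed for HS and 2 for HS+REC, against 1.87% and 1.58% of all genes. LONP1 itself had an interaction with HS of log2 -0.76 (adjusted p = 0.000468) and with HS+REC of 0.43 (adjusted p = 0.0321). In siLonp1 cells it fell from 20.4 ± 1.75 CPM in Ctrl to 11.7 ± 0.154 in HS and was at 27.2 ± 1.64 in HS+REC, whereas the scramble cells had 221 ± 5.56, 214 ± 15.7 and 218 ± 18.7. FEN1 with HS was at log2 -0.32 (adjusted p = 0.0473) and ATAD3B with HS at log2 -0.55 (adjusted p = 0.0295). MYC with HS+REC was at log2 -0.65 (adjusted p = 0.0147) and NRF1 with HS+REC at log2 -0.39 (adjusted p = 0.0204). The calls of FEN1, ATAD3B, MYC and NRF1 were lost without 1 library in 11, 10, 1 and 5 of 18 fits, and that of FEN1 also with RLE factors and with the replicate number as a block (adjusted p = 0.056 and 0.0545).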

How the results depend on the processing

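The rise of TOP1MT with siLonp1, the rises of POLG2 and MGME1 in HS and HS+REC, and the lower MGME1 in siLonp1 cells passed at FDR 0.05 under every alternative fit and without any 1 library. With only the groups compared, 59.9%, 55.4% and 43.8% of all genes passed for siLonp1 in Ctrl, HS and HS+REC. In the model of all groups these shares were 49.2%, 54.8% and 54.1%. The numbers of the 9 genes that passed moved by more than 1.5 times as follows. At FDR 0.01 they were 3 for HS in scramble (24.5% of all genes), 3 for siLonp1 in HS (42.4%), and 2 in each arm for HS+REC against HS (18.2% and 23.0%). With a fold change above 2 they were 1 for siLonp1 in each condition and 0 for HS, HS+REC and HS+REC against HS in either arm. With library size only they were 5 for HS in siLonp1 (43.7%) and 4 for HS+REC in scramble (46.8%), without a filter 2 for HS+REC against HS in scramble (17.4%), and with only the groups compared 2 and 3 for HS+REC against HS in scramble and siLonp1 (21.1% and 28.6%) and 1 for the interaction with HS (POLRMT, 5.8%). Without 1 library they ran from 3 to 4 for siLonp1 in Ctrl, 3 to 6 in HS and 4 to 4 in HS+REC, from 2 to 6 for HS in scramble and 2 to 4 in siLonp1, from 2 to 3 for HS+REC in scramble and 3 to 3 in siLonp1, from 1 to 7 and 3 to 6 for HS+REC against HS in scramble and siLonp1, and from 0 to 1 and 0 to 0 for the interactions with HS and HS+REC. Over the same fits the shares of all genes ran from 41.7% to 50.8%, 47.9% to 56.4% and 47.9% to 55.5% for siLonp1 in Ctrl, HS and HS+REC, from 28.7% to 37.7% and 36.4% to 44% for HS in scramble and siLonp1, from 36.4% to 43.6% and 45.1% to 52.4% for HS+REC, from 20.8% to 29.3% and 26.4% to 33.4% for HS+REC against HS, and from 0.764% to 4.1% and 0.749% to 2.37% for the interactions. The lowest number for HS in scramble, for siLonp1 in HS and for HS+REC against HS in scramble came without HS scramble replicate 2, and the highest for HS in scramble and for HS+REC against HS in scramble came without HS scramble replicate 3. The cause was not tested.

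Values that changed sign were all near 0 and none had passed. With library size only, which moved the median of all genes by -0.097 to 0.0035, they were for siLonp1 POLG -0.014 and TFB2M -0.074 in Ctrl, SSBP1 -0.049, TFAM -0.064 and TFB2M -0.0501 in HS, and TFAM -0.061 and TFB1M -0.036 in HS+REC. They were POLG -0.057 and TFB1M -0.072 for HS+REC in scramble, SSBP1 -0.044, TFAM -0.068 and TFB2M -0.014 for HS+REC in siLonp1, and TOP1MT -0.027 for HS+REC against HS in siLonp1. Without a filter they were TFAM -0.00819 for HS+REC in siLonp1 and TOP1MT -0.018 for HS+REC against HS in siLonp1. With CPM above 1 in all libraries they were TFB2M -0.0023 for siLonp1 in Ctrl and TOP1MT 0.0034 for HS in scramble. TFB2M for siLonp1 in Ctrl was also -0.0096 with RLE factors, -0.0097 with DESeq2 and -0.015 with only the groups compared.

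Without 1 library, values that crossed 0 ran for siLonp1 from -0.0596 to 0.00497 for TFAM and -0.044 to 0.062 for TFB2M in Ctrl, from -0.0203 to 0.059 for TFAM, -0.026 to 0.086 for TFB2M and -0.0014 to 0.11 for SSBP1 in HS, and from -0.048 to 0.063 for TFAM, -0.078 to 0.021 for POLG and -0.059 to 0.026 for SSBP1 in HS+REC. For HS in scramble TOP1MT ran from -0.0598 to 0.017. For HS+REC in scramble TFAM ran from -0.075 to 0.021, POLG from -0.018 to 0.081, SSBP1 from -0.082 to 0.0019 and TFB1M from -0.0055 to 0.0401, and in siLonp1 TFAM from -0.046 to 0.068. TOP1MT for HS+REC against HS in siLonp1 ran from -0.089 to 0.048. The interaction with HS ran from -0.017 to 0.12 for POLG2 and -0.027 to 0.091 for TFB2M, and that with HS+REC from -0.043 to 0.054 for POLG2, -0.025 to 0.087 for TFAM and -0.073 to 0.0012 for MGME1.

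The replicate number as a block left the numbers of the 9 genes that passed as they were in 10 of the 11 contrasts and took POLRMT below the limit for HS+REC against HS in siLonp1 (log2 -0.20, adjusted p = 0.0612), which left 4. The block turned TFB2M for siLonp1 in Ctrl to -0.00097. Deviations of libraries with the same number correlated between -0.379 and 0.462, and in 9 of 27 comparisons of a library with those of the other group the correlation was best with its own number, so the numbers were not taken as pairs. Between HS+REC and HS these correlations were 0.275, -0.161 and 0.132 in scramble and 0.262, 0.0904 and 0.124 in siLonp1 cells. Of 186 calls of named partner genes, 45 were lost without 1 library in at least 1 fit, 40 under another alternative, and 0 changed sign. The calls of GABPB1 (siLonp1 in HS+REC), ABAT and FASTKD1 (siLonp1 in Ctrl), MYC (HS in scramble) and TOP3A (HS+REC in scramble) were lost with library size only, and those of UNG, SUPV3L1 and MYC for siLonp1 in HS+REC with only the groups compared. Between 384 and 12817 counts per library lay behind each of the 9 genes. POLG2, with 384 to 1055, had the fewest, so counting error limits small differences in it most.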

Other observations

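Of 10 nuclear regulators of mitochondrial genes, 4 were higher and 0 lower with siLonp1 in Ctrl, 2 and 3 in HS, and 2 and 2 in HS+REC, where 26.3% of all genes were higher and 22.9% lower in Ctrl, 28.1% and 26.7% in HS, and 26.8% and 27.3% in HS+REC. GABPB1, a subunit of the ETS factor GABP, was higher in all 3 conditions, at log2 0.32, 0.29 and 0.22. NRF1 was higher at log2 0.33 in Ctrl (adjusted p = 9.28e-05) and 0.25 in HS. After recovery it was at 24.7 ± 0.641 CPM in scramble and 23.8 ± 0.329 in siLonp1 cells, at log2 -0.29 and -0.68 against Ctrl, with an interaction of -0.39 (adjusted p = 0.0204) that was lost in 5 of 18 fits without 1 library (adjusted p from 0.0626 to 0.0726). MYC was higher at log2 0.34 with siLonp1 in Ctrl (adjusted p = 0.00558) and lower at log2 -0.31 in HS+REC (adjusted p = 0.01), where the call was lost without HS+REC scramble replicate 1 or HS+REC siLonp1 replicate 1 or 2 (-0.26 to -0.16).

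In heat, leaving out PPARGC1A, 2 of 9 regulators were higher and 0 lower in HS scramble (18.6% and 17.3% of all genes), and 4 and 3 in HS+REC scramble (21.8% and 20.5%). In siLonp1 cells the numbers were 1 and 2 in HS (20.2% and 22.1%) and 2 and 4 in HS+REC (24.6% and 26.6%). PPARGC1A, which encodes the coactivator PGC-1 alpha, was at a very low level of 0.496 ± 0.0683 CPM in Ctrl scramble, 0.981 ± 0.00973 in HS scramble and 0.965 ± 0.187 in HS+REC scramble. In siLonp1 cells it was at 0.481 ± 0.203, 1.03 ± 0.168 and 1.29 ± 0.302 CPM. No Ctrl library was above 1 CPM, so PPARGC1A entered the tests through libraries of the heated groups, where it is high, and its filtered test is not read here. In the fit without a filter its log2 fold change was 0.98 in HS and 0.94 in HS+REC scramble (adjusted p = 0.00175 and 0.00201), and 1.10 and 1.40 in siLonp1 cells (adjusted p = 0.00039 and 1.24e-06). Its relative PPARGC1B was lower at log2 -1.22 in HS+REC scramble and -1.31 in HS+REC siLonp1 (adjusted p = 1.95e-07 and 1e-07). MYC was higher at log2 0.82 in HS+REC scramble (adjusted p = 3.02e-07) and was at log2 0.17 in siLonp1 cells (adjusted p = 0.15), with an interaction of -0.65 (adjusted p = 0.0147) that was lost without Ctrl scramble replicate 3 (-0.62, adjusted p = 0.0504). MYC also rose by log2 0.25 in HS scramble (adjusted p = 0.0456), a call lost in 9 of 18 fits without 1 library. YY1 rose by log2 0.27 in HS and was higher at log2 0.35 in HS+REC scramble.

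The genes whose log2 CPM ran most closely with TFAM over the 18 libraries were UBE2V2 (r = 0.917), FAM120AOS (r = 0.909), SIKE1 (r = 0.896), TSN (r = 0.891) and COMMD2 (r = 0.885), of 9253 genes with a mean CPM of at least 10. The points are 3 libraries of each of 6 groups, and no test was made.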
